A study of Mus musculus with 15 samples.

Results

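The mRNAs of 7 mouse genes of the major histocompatibility complex (MHC) class I pathway were examined for crosslinks to the RNA-binding protein tristetraprolin (TTP). The genes were B2m, H2-K1, H2-D1, H2-T23, H2-Q4, Tap1 and Tapbp, of 21045 protein-coding genes with an annotated 3′ untranslated region (3′UTR) in GENCODE M21 on mm10. A crosslink site was counted for a gene when it lay on the gene's own strand. Together the 7 genes held 213 of the 162273 site entries in the 6 deposited site lists, with 530 cDNAs, and B2m alone held 194 of these entries and 509 of these cDNAs. Of the 7 genes, 5 had a site in any list and 4 had a site in the 3′UTR.

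MHC class I molecules display peptides from inside the cell to T cells. A heavy chain, encoded by H2-K1, H2-D1 and their relatives, pairs with the light chain β2-microglobulin, encoded by B2m, and the pair is loaded with peptide in the endoplasmic reticulum. TTP is induced by inflammatory signals in macrophages, binds AU-rich elements such as AUUUA in 3′UTRs and recruits the machinery that shortens the poly(A) tail and degrades the mRNA. The kinase MK2, activated in macrophages by bacterial lipopolysaccharide (LPS), phosphorylates TTP and lowers its activity.

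Individual-nucleotide resolution crosslinking and immunoprecipitation (iCLIP) had been applied to immortalised C57BL/6 bone marrow-derived macrophages that lack TTP, carry hcmyc and hRasG12V, were positive for CD11b and F4/80, and express GFP-TTP or GFP-TTP-AA from a tet-inducible retroviral vector. TTP-AA has alanine at both MK2 phosphorylation sites. All cells received doxycycline (1 µg/ml, 6 h) and either no LPS (0 h) or LPS (1 µg/ml) for 1 h or 4 h. The TTP groups held 2, 4 and 2 libraries at 0 h, 1 h and 4 h, and the TTP-AA groups held 2, 3 and 2. In this model the only TTP is the transgene, so its expression follows doxycycline at every time, also without LPS.

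The lists gave a sum over the libraries of each group, so no value below has a replicate error. Intervals cover counting error only, and tests compare pooled lists, not conditions. The lists held 19167 to 174397 cDNAs, of which 906 to 93510 lay in 3′UTRs. The 1 h lists carry a header mark of the peak calling that the other lists lack, so LPS time and peak calling cannot be told apart between 1 h and the other times. No control list and no RNA abundance were analysed here, and more binding and more mRNA cannot be told apart in these counts. Of 8 macrophage markers, 6 had exonic cDNAs in the TTP-AA 1 h list, whereas none of the 7 lymphocyte, 5 neutrophil or mast cell and 4 fibroblast markers had one in any list. Over all 21045 genes, 4468 had 3′UTR cDNAs in the TTP-AA 1 h list, and the number with exonic cDNAs was not computed.

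The stretches of RNA that carry the results are given here 5′ to 3′, from the GENCODE M21 transcripts on mm10. The most heavily crosslinked stretch of the B2m 3′UTR, with the nucleotide that held most cDNAs in the TTP-AA 1 h list in capitals, lies at chr2:122152757-122152786 on the plus strand.
B2m main site: aucuuacuuuaaauAuuuuaugcauguuuu
The single AUUUA of the B2m 3′UTR, in capitals, lies 5′ of it at chr2:122152697-122152726.
B2m AUUUA: auaugcuauacaAUUUAugcacgcagaaag
Farther 3′ follow copies of the poly(A) signal AAUAAA, in capitals, of which those nearer to the main site lie at chr2:122152807-122152836 and chr2:122152839-122152868.
B2m AAUAAA 1: agauagcugagcAAUAAAucuucaauaagu
B2m AAUAAA 2: uuugaucagaauAAUAAAuauaauuuuaag
For the heavy chains, the stretches with all 3′UTR crosslink nucleotides in capitals lie at chr17:35267331-35267360 (plus strand) for H2-D1 and at chr17:33996061-33996090 (minus strand) for H2-K1.
H2-D1 sites: auAauaaauaagucuUUAaaaaaUaauUug
H2-K1 sites: uuuguuuguuuguuUGauugauuuguuuuu

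B2m (chr2:122147686-122153083, plus strand), the light chain common to the class I molecules, carried nearly all cDNAs of the 7 genes. Its 3′UTR held 26, 27 and 0 cDNAs in the TTP lists at 0 h, 1 h and 4 h. In the TTP-AA lists the same 3′UTR held 16, 425 and 11 cDNAs. The TTP-AA 1 h list thus held more B2m cDNAs than the other lists together, while the TTP 4 h list held none. Among 906 3′UTR cDNAs, a count of 0 has a Wilson 95% upper limit of 42.2 per 10000. As a share of all 3′UTR cDNAs of a list, B2m stood at 59.5 per 10000 in TTP 0 h (Wilson 95% interval 40.6 to 87.1) and at 26.6 in TTP-AA 0 h (16.4 to 43.2). At 1 h it stood at 28.2 in TTP (19.4 to 41.1) and at 45.4 in TTP-AA (41.3 to 50). At 4 h the TTP-AA value was 110 (61.5 to 196), from 11 cDNAs. The share was thus higher in TTP than in TTP-AA at 0 h, and higher in TTP-AA than in TTP at 1 h and 4 h.

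**Figure D1:**
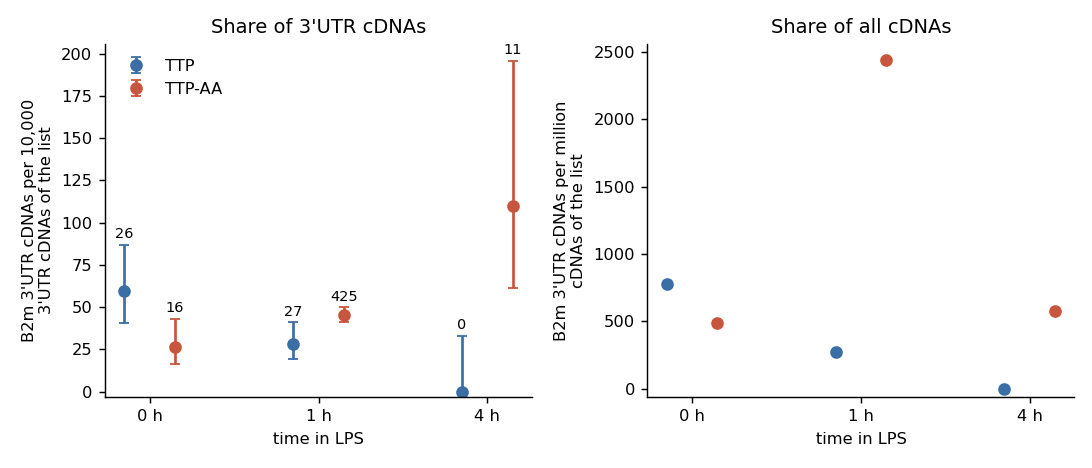
The left panel plots B2m 3′UTR cDNAs per 10000 3′UTR cDNAs of each list against the time in LPS. It shows Wilson 95% intervals and the cDNA count above each point. For TTP at 4 h the bar ends at the floor of 3 cDNAs (33.1 per 10000), below the Wilson limit of 42.2. The right panel plots B2m 3′UTR cDNAs relative to the cDNAs of all regions of the list. TTP (blue) lies above TTP-AA (red) at 0 h and below it at 1 h and 4 h in both panels, and the TTP-AA 1 h point stands far above the rest only in the right panel.

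At 1 h of LPS, when MK2 can phosphorylate TTP but finds its sites missing in TTP-AA, B2m had 15.7 times as many 3′UTR cDNAs in TTP-AA as in TTP (425 and 27, 95% interval 10.7 to 24.2). All 3′UTRs together had 9.78 times as many, and all cDNAs 1.76 times as many. Relative to the 3′UTR cDNAs the odds ratio of B2m was 1.61, which did not pass two-sided Fisher's exact test after Benjamini-Hochberg adjustment over 2065 genes (p = 0.0144, adjusted p = 0.134). In this comparison 6.39% of the genes tested were called. The call rests on the denominator. Relative to all cDNAs of the lists the odds ratio was 8.98 (Fisher's exact test, adjusted p = 3.98e-50), and relative to the cDNAs in 3′UTR, coding sequence (CDS) and 5′UTR of protein-coding genes it was 1.94 (Fisher's exact test, adjusted p = 0.00907). With all cDNAs as the denominator 1763 of the 2065 genes were called, so the B2m call was shared by most genes. Of those called 99.5% had the higher share in TTP-AA, against 31.1% with 3′UTR cDNAs. With exonic cDNAs of protein-coding genes 158 were called, 57.0% of them higher in TTP-AA. With each site counted once, B2m had 17 sites in TTP and 140 in TTP-AA, an odds ratio of 0.912 (Fisher's exact test, adjusted p = 0.779). The B2m sites held 1.59 cDNAs each in TTP and 3.04 in TTP-AA.

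**Figure D2:**
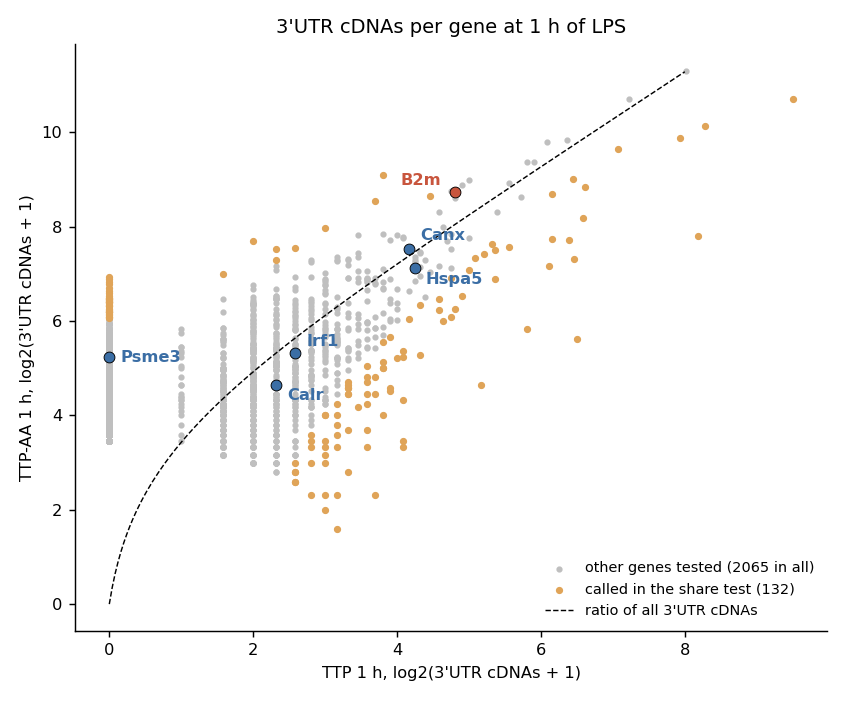
Each point is a gene with at least 10 3′UTR cDNAs over both 1 h lists, plotted as log2(3′UTR cDNAs + 1) in TTP (x) against TTP-AA (y). The dashed line is the ratio of all 3′UTR cDNAs (9.78), orange marks the 132 of 2065 genes called in the share test, B2m (red) lies above the line and is not called, and the named presentation genes (blue) lie on both sides of it and are not called.

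Without LPS the order of the proteins was the opposite. B2m had 26 cDNAs in TTP and 16 in TTP-AA, and its share was lower in TTP-AA (odds ratio 0.446, Fisher's exact test, adjusted p = 0.0383 over 241 genes). The share of genes called was high at this time, 30.7% in all and 13.3% for a lower share in TTP-AA. The B2m call was lost by Fisher's exact test relative to all cDNAs (odds ratio 0.634, adjusted p = 0.336) and with each site counted once (odds ratio 0.552, adjusted p = 0.421). At 4 h the B2m count was at least 3.67-fold higher in TTP-AA than in TTP (11 and 0, with TTP set to a floor of 3 cDNAs). No test of its share is given, because B2m met the minimum of 10 cDNAs only through the TTP-AA list and all 8 genes that were at 0 in TTP and met it were called. Here 68.0% of only 25 genes were called in either direction.

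The change in B2m cDNAs between 0 h and 1 h differed between the proteins. The odds ratio of TTP-AA to TTP was 0.446 at 0 h and 1.61 at 1 h, and Zelen's exact test of equal odds ratios gave an adjusted p of 0.00462 over 235 genes, of which 24.3% were called. With each site counted once the call was lost (14 and 10 sites at 0 h, 17 and 140 at 1 h, Zelen's exact test, adjusted p = 0.612). Between 4 h and 1 h no conclusion is drawn from Zelen's exact test for B2m. The gene met the minimum of 10 cDNAs at 4 h only through its 11 cDNAs in TTP-AA. Of the 25 genes in that comparison 48.0% were called. Within TTP, B2m had 26 cDNAs at 0 h and 27 at 1 h while all 3′UTRs had 2.19 times as many at 1 h, and its share fell (odds ratio 0.473, Fisher's exact test, adjusted p = 0.0239). In that comparison 47.5% of 276 genes were called, 23.6% with a lower share at 1 h. With each site counted once the call was lost (odds ratio 0.601, Fisher's exact test, adjusted p = 0.31). Within TTP-AA, the B2m count at 1 h was 26.6 times that at 0 h (95% interval 16.2 to 46.9), beside 15.6 times for all 3′UTRs. The share did not pass Fisher's exact test (odds ratio 1.71, adjusted p = 0.172, with 12.4% of 2052 genes called), but did relative to all cDNAs (odds ratio 4.98, adjusted p = 3.88e-14). With that denominator 503 of the 2052 genes were called.

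From 1 h to 4 h the B2m count in TTP-AA went from 425 to 11 while all 3′UTR cDNAs went from 93510 to 1000. The share was 45.4 and then 110 per 10000, which did not pass Fisher's exact test (odds ratio 2.44, adjusted p = 0.172, with 3.13% of 1980 genes called). Its direction depends on the denominator, since relative to all cDNAs the odds ratio was 0.235 (Fisher's exact test, adjusted p = 1.41e-07). With that denominator 276 of the 1980 genes were called. In TTP the B2m count went from 27 to 0, which in a list of 906 3′UTR cDNAs was not a detectable change of share (Fisher's exact test, adjusted p = 0.396, with 20% of 170 genes called). B2m met the minimum count only through the 1 h list, so this test cannot decide whether its share changed, and none relative to all cDNAs is given. With all cDNAs as the denominator 51 of the 170 genes were called, 47 of them with a lower share at 4 h.

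By its cDNA count B2m ranked high among the genes with 3′UTR cDNAs in each list that held it. It was number 18 of 4468 genes in TTP-AA 1 h, number 37 of 1295 in TTP 1 h and number 19 of 738 in TTP 0 h. In TTP-AA 0 h it was number 61 of 894 and in TTP-AA 4 h number 12 of 198. Per length of 3′UTR, a measure that does not account for mRNA abundance, B2m had 949 cDNAs per kb in TTP-AA 1 h. It was number 16 of 1968 genes with at least 10 cDNAs, whose median was 15.6 per kb. In TTP 1 h it had 60.3 cDNAs per kb, number 26 of 156 genes with a median of 12.6. At 0 h it had 58.0 cDNAs per kb in TTP, number 16 of 86 genes (median 13.2), and 35.7 in TTP-AA, number 31 of 126 (median 12.3). In TTP-AA 4 h its 24.6 cDNAs per kb were number 9 of 15 genes and below their median of 26.4.

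The crosslinks of B2m were concentrated in a small part of its 3′UTR. The 3′UTR is 448 nt long, spans 2 exons (chr2:122151661-122153083, plus strand) and has 67.6% A and U, above the median of 56.6% over all genes. Of its windows of 41 nt, the one with most cDNAs in TTP-AA 1 h covered nt 112 to 152 from the stop codon (chr2:122152747-122152787), 9.15% of the 3′UTR. This window was chosen on the TTP-AA 1 h list, where it held 223 of 425 cDNAs (52.5%). In the lists that were not used to choose it, the window held all 26 cDNAs of TTP 0 h, all 16 of TTP-AA 0 h and all 11 of TTP-AA 4 h. In TTP 1 h it held 21 of 27 cDNAs (77.8%, Wilson 95% interval 59.2 to 89.4). The nucleotide with most cDNAs was nt 136 in TTP-AA 1 h (28 cDNAs) and the neighbouring nt 135 in TTP 0 h (4) and TTP-AA 4 h (2). In TTP 1 h, nt 135 was among 3 nucleotides tied at 3 cDNAs. In these 4 lists nt 135 or nt 136 thus held or shared the highest count, whereas in TTP-AA 0 h it was held by 2 nucleotides tied at 3 cDNAs, the first of them nt 140.

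**Figure D3:**
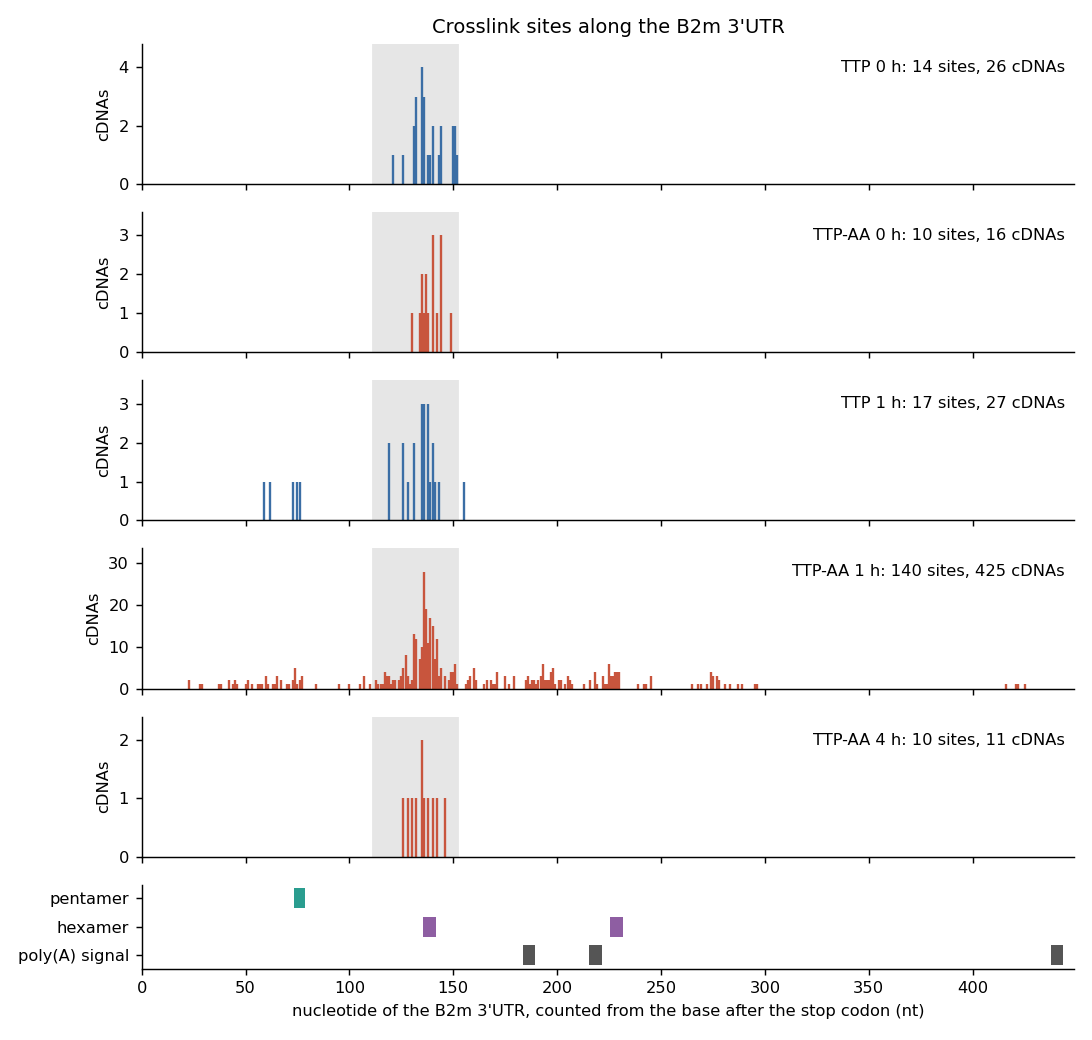
Each panel plots the cDNAs (y) at each crosslink nucleotide along the B2m 3′UTR (x, nt from the stop codon) in 1 list, with the 41-nt window shaded, and the lowest panel marks AUUUA (pentamer), AUUUUA (hexamer) and AAUAAA (poly(A) signal). Sites of all 5 lists pile up around the hexamer at nt 136, and the TTP-AA 1 h list alone has many sites on both sides of it.

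Outside the window the lists differed. In TTP-AA 1 h, 140 sites covered nt 23 to 425, with 35 cDNAs at nt 51 to 100, 76 at nt 151 to 200, 54 at nt 201 to 250 and 22 at nt 251 to 300. None lay between nt 301 and 400. In TTP 1 h the sites covered nt 59 to 155, and in the 0 h lists nt 121 to 152 (TTP) and nt 130 to 149 (TTP-AA). The TTP-AA 1 h list held 9.78 times the 3′UTR cDNAs of TTP 1 h, and the part of depth in this breadth was not tested.

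Sites of the shallower lists recurred in the deepest list. All 17 B2m 3′UTR sites of TTP 1 h had a TTP-AA 1 h site within 15 nt, beside 76.6% of TTP 1 h sites over all genes, and 14 of the 17 were at the same nucleotide, beside 46.0%. All 10 sites of TTP-AA 0 h and all 10 of TTP-AA 4 h were at nucleotides that also crosslinked in TTP-AA 1 h, beside 43.7% and 40.7% over all genes. The 7 genes together had 17 of 19 TTP 1 h sites (89.5%) within 15 nt of a TTP-AA 1 h site, and the other 2 were those of Tapbp. These shares are descriptions, since sites of 1 mRNA are not independent. TTP-AA 1 h had 140 B2m 3′UTR sites, 37 of them at nt 101 to 150, so a close neighbour was nearly certain for B2m. The shares over all genes come from sparser 3′UTRs, with a median of 8 cDNAs per gene in that list, and are not a like comparison.

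The main B2m site did not lie on the pentamer AUUUA. The B2m 3′UTR holds 1 AUUUA (nt 74), no UAUUUAU, and AUUUUA at nt 136 and nt 226. The motifs were searched as these letters on the transcript strand only, and each UAUUUAU also holds the pentamer. Over all genes, AUUUA is present in 65.2% of the longest 3′UTRs, UAUUUAU in 27.6%, AUUUUA in 47.0% and AAUAAA in 80.1%. In TTP-AA 1 h, 15 of 140 B2m sites (10.7%, Wilson 95% interval 6.6 to 16.9) had a whole AUUUA within 20 nt, beside 34.7% of sites over all genes. For AUUUUA it was 46 of 140 (32.9%, 25.6 to 41.0), beside 10.5%, and these sites held 251 of the 425 cDNAs (59.1%). The share of all B2m 3′UTR positions near each motif was not computed. Preference for a motif and the number of its copies therefore cannot be told apart in these shares. The hexamer at nt 136, whose A is the capital letter in the main site above, itself contained 97 of the 425 cDNAs in TTP-AA 1 h, 10 of 27 in TTP 1 h, 7 of 26 in TTP 0 h and 7 of 16 in TTP-AA 0 h. Around the AUUUA, 5 of 17 TTP 1 h sites lay within 20 nt, and no site of the 0 h lists or of TTP-AA 4 h did.

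AAUAAA lay near a larger share of B2m sites than of all sites in TTP-AA 1 h. A copy lay within 20 nt of 41 of 140 B2m sites (29.3%, 22.4 to 37.3), beside 5.08% over all genes. The B2m 3′UTR holds 3 copies, and the share of its positions within 20 nt of a copy was not computed. A preference for AAUAAA and the number of its copies therefore cannot be told apart. Measured from the ends of each motif, the copies at nt 184 and nt 216 had 67 and 61 cDNAs within 20 nt, in part the same cDNAs, whereas the copy at nt 438 near the annotated transcript end had 3. No site of the other lists lay within 20 nt of an AAUAAA. The crosslinked base itself was like that of other genes, a U for 60.0% of the B2m cDNAs and 62.0% of all 3′UTR cDNAs in TTP-AA 1 h.

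B2m cDNAs were almost absent outside the 3′UTR. In TTP-AA 1 h all 425 sense cDNAs lay in the 3′UTR, beside 85.6% over all protein-coding genes. In TTP 1 h it was 27 of 30 (90.0%, 74.4 to 96.5), beside 37.4%. The other 3 cDNAs lay in the CDS at chr2:122151110-122151111, where TTP-AA 0 h also had 1 cDNA. No B2m cDNA lay in an intron or the 5′UTR in any list. The shares over all genes given above include intronic cDNAs. Without these, the 3′UTR held 95.3% (TTP-AA 1 h) and 79.1% (TTP 1 h) of the cDNAs of all protein-coding genes. The value of 79.1% lies within the B2m interval for TTP 1 h.

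The heavy chains had few crosslinks. H2-D1 (chr17:35262730-35267499, plus strand), a classical heavy chain, had 7 cDNAs at 6 sites of its 3′UTR (chr17:35267333-35267358) in TTP-AA 1 h and 0 in the other 5 lists. With TTP 1 h set to the floor of 3 cDNAs, its count was 2.33-fold higher in TTP-AA 1 h, which is not a lower limit. At 11.1 cDNAs per kb H2-D1 lay below the 15.6 median given above for genes with at least 10 cDNAs. H2-K1 (chr17:33996017-34000347, minus strand), the other classical heavy chain examined, had 2 cDNAs in its 3′UTR (chr17:33996075-33996076) and 6 in an intron (chr17:33998462-33998484), all in TTP-AA 1 h. H2-T23 and H2-Q4, nonclassical heavy chains, had 0 cDNAs in all lists, which in TTP-AA 1 h allows a level of up to 0.321 per 10000 3′UTR cDNAs. None of the 4 reached the 10 cDNAs needed for the test.

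The sites of H2-D1 lay in a stretch that sets it apart from H2-K1. The coding sequences of H2-K1 and H2-D1 were 92.0% identical over 1077 aligned nt, and their 3′UTRs (455 and 629 nt) were 90.9% identical over 440 aligned nt. The alignment left a stretch of 187 nt of the H2-D1 3′UTR (nt 307 to 493) without a partner in H2-K1, and all 6 H2-D1 sites (nt 463 to 488) lay in it. The 2 H2-K1 sites lay at nt 396 and 397 of its own 3′UTR, in the U-rich stretch printed above. No heavy chain examined had an AUUUA in its 3′UTR, and neither had Tapbp, whereas Tap1 had 1 (nt 160).

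Sequence shared between loci limits what can be read from the zeros. Of the stretches of 30 nt in the 3′UTR, 91.8% in H2-T23, 54.9% in H2-Q4, 24% in H2-D1 and 9.39% in H2-K1 also occurred in transcripts of other loci. In the coding sequences it was 51.4%, 39.3%, 41.4% and 32.3% in the same order. None did in the 3′UTR or the coding sequence of B2m. For H2-D1, 81 of the 158 such stretches inside the 187 nt were shared, and the 3′UTR as a whole shared a stretch with 709 other genes. How reads with several matches were treated is not given for these lists beyond the mapping of unique reads, and the part of shared sequence in the low counts of the heavy chains was not tested. No exonic site of any of the 7 genes had its 30 nt downstream in a transcript of another locus.

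**Figure D4:**
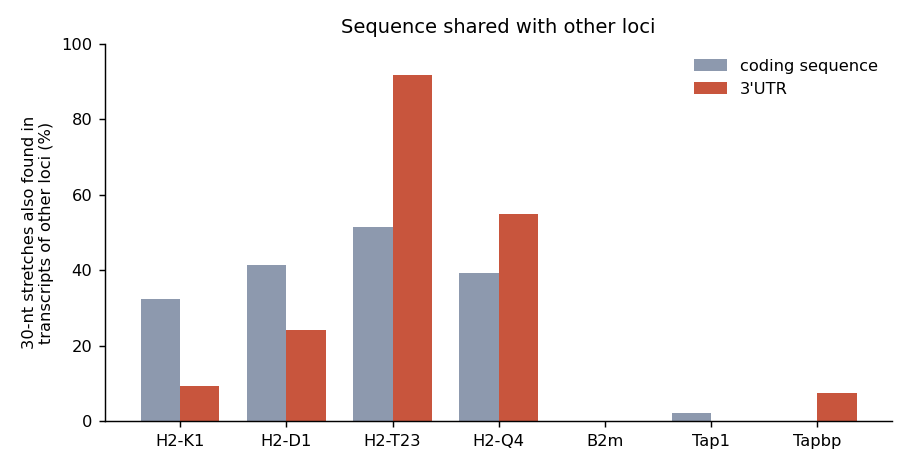
Bars give the percentage of 30-nt stretches in the coding sequence (grey) and in the 3′UTR (red) of each gene that also occur in GENCODE M21 transcripts of other loci. The 4 heavy chains share 9.39% to 91.8% of their 3′UTR stretches and B2m shares none.

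The peptide loading members had few crosslinks too. Tapbp (chr17:33915899-33929292, plus strand) encodes tapasin, which holds the empty class I molecule at the peptide transporter. It had 4 cDNAs in TTP 1 h, 2 of them in the 3′UTR (chr17:33928949 and chr17:33928963) and 2 in an intron (chr17:33921285), and 0 in the other lists, so that it was the only one of the 7 genes with cDNAs in TTP and none in TTP-AA. Tap1 (chr17:34187553-34197225, plus strand), a subunit of the transporter, had 2 cDNAs in an intron (chr17:34191209-34191210) in TTP-AA 0 h and 0 in the other lists. No fold is given for these counts, which lie under the floor. Summed over the 7 genes, 29 3′UTR cDNAs in TTP 1 h and 434 in TTP-AA 1 h gave a ratio of 15.0 (10.3 to 22.6), and B2m made up 27 and 425 of them.

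Some other genes of the pathway held more crosslinks than the heavy chains. Of 35 further genes of class I presentation, 34 were annotated, 9 had 3′UTR cDNAs in TTP-AA 1 h and 5 in TTP 1 h. Over all 21045 genes with a 3′UTR, 4468 had them in TTP-AA 1 h and 1295 in TTP 1 h. None of the 12 annotated further heavy chains and none of 4 class I-like molecules had an exonic cDNA in any list. Of the chaperones and enzymes of peptide loading 4 of 7 had an exonic cDNA in some list, of the proteasome genes 1 of 6, and of the regulators of class I transcription 5 of 5. At 1 h 7 of the 35 could be tested and 0 were called by Fisher's exact test, beside 6.39% of all genes tested. Among the 7, Psme3 met the minimum count only through the TTP-AA list. As a contrast, 1 of 8 MHC class II genes had exonic cDNAs in any list (H2-DMb1, 4 in TTP-AA 1 h), a gene named after its value was seen. The share of all genes with an exonic cDNA in any list was not computed. The counts of genes with exonic cDNAs therefore cannot be judged against it.

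The 5 with most 3′UTR cDNAs at 1 h were Canx, Hspa5, Irf1, Psme3 and Calr. Canx encodes calnexin, the chaperone that first holds new heavy chains, and had 17 cDNAs in TTP 1 h and 183 in TTP-AA 1 h. Hspa5 encodes BiP, the main chaperone of the endoplasmic reticulum, with 18 and 139. Irf1 encodes a transcription factor of class I genes, with 5 and 39. Their ratios of 10.8 (6.54 to 18.9), 7.72 (4.71 to 13.4) and 7.80 (3.07 to 25.4) had intervals that include the 9.78 of all 3′UTRs. Psme3, a proteasome activator subunit, had 0 and 37, 12.3-fold with TTP set to the floor of 3 cDNAs, which is not a lower limit. No p-value is given for Psme3, because it met the minimum count only through TTP-AA. Calr, the chaperone calreticulin, had 4 and 24 (6.00-fold, 2.06 to 23.8). Per kb of 3′UTR in TTP-AA 1 h these genes had 22.2 (Psme3) to 96.9 cDNAs (Hspa5), beside 949 in B2m, with mRNA abundance not accounted for.

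**Figure D5:**
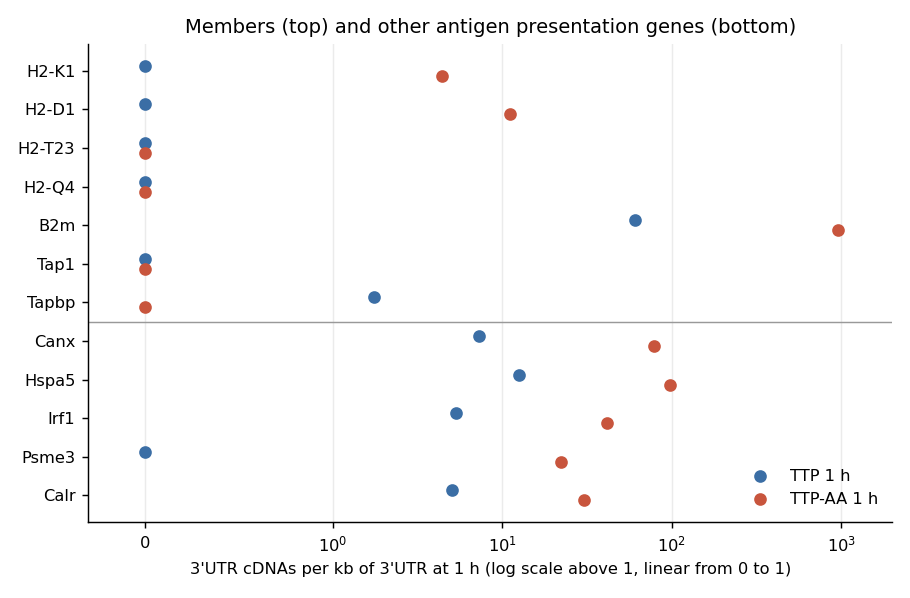
Points give 3′UTR cDNAs per kb of 3′UTR at 1 h in TTP (blue) and TTP-AA (red) for the 7 genes (top) and for the 5 further presentation genes (bottom), on an axis that is linear from 0 to 1 and logarithmic above. B2m stands at 60.3 and 949 per kb, and H2-T23, H2-Q4 and Tap1 stand at 0 in both lists.

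Outside 1 h these genes had few cDNAs. Only Canx had 3′UTR cDNAs in both 0 h lists, 3 in TTP and 14 in TTP-AA, and none of the 35 genes had any in the 4 h lists. In those lists only 127 (TTP) and 198 (TTP-AA) of all 21045 genes had any. Hspa5 was at 0 in both 0 h lists and had 18 cDNAs in TTP and 139 in TTP-AA at 1 h. No test of that change is given, because Hspa5 met the minimum count only through the 1 h lists. Whether these courses differ from that of B2m was not tested.

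Genes with a pattern like that of B2m were sought over the 6 lists, by Euclidean distance in log2(cDNAs per 10000 3′UTR cDNAs + 1) among 2181 other genes with at least 10 3′UTR cDNAs in all. The nearest were Cdkn1a (distance 1.47), Spp1 (2.06), Tmsb4x (2.59), Osbpl8 (2.68) and Sdc4 (2.74), against a median of 11.2. Cdkn1a, which encodes the cell cycle inhibitor p21, had 41, 46 and 0 cDNAs in TTP and 34, 488 and 10 in TTP-AA at 0 h, 1 h and 4 h. Spp1, which encodes osteopontin, had 47, 97 and 0 in TTP and 14, 457 and 8 in TTP-AA. Like B2m, each of the 5 had 0 cDNAs in TTP 4 h and some in each of the other lists. This follows from their choice by distance over these same values and is not a separate result. The measure is a description over 6 pooled lists of unequal depth.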

How the data were processed

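iCLIP had been performed on 15 libraries in 6 groups. Each deposited list gives, per crosslinked nucleotide, a score that counts its unique cDNAs in whole numbers, negative on the minus strand. As the study's methods describe, the authors split the reads by their barcodes, collapsed PCR duplicates by 4 random bases, mapped unique reads with Bowtie to mm10 (GRCm38, Ensembl 75; versions of tools not given in the sources used here), took the base before the read as the crosslink, added up the libraries of each group and retained sites under an iCount false-discovery rate of 0.05 (100 permutations, 15 nt). The scores were not normalised.

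Sites were assigned on their own strand to GENCODE M21 (3′UTR before CDS, 5′UTR and intron), and positions and sequences refer to the transcript with the longest 3′UTR of a gene. Genes with at least 10 3′UTR cDNAs over both lists were compared by two-sided Fisher's exact test, and differences between times by Zelen's exact test, with Benjamini-Hochberg adjustment over all genes and a threshold of 0.05 (Python 3.11.15, scipy 1.17.1, Biopython 1.88). Both tests were tested on simulated counts without variation between libraries and without clustering of cDNAs at sites. The simulation therefore cannot show how the tests behave with either. Wilson intervals for shares and exact intervals for ratios are at 95%, and the floor is 3 cDNAs. The 7 genes and the other gene lists were chosen with earlier results of these data known. Named were all 7 genes, the 5 other presentation genes with most cDNAs at 1 h (none was called) and the 5 genes nearest to B2m in pattern. Alternatives were the minimum count, the denominator, single-cDNA sites, sites counted once, CDS before 3′UTR, all exons, the distance for shared sites and the motif window.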

Additional observations from a re-analysis of the deposited data

Results flagged for a closer look

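For B2m, the odds ratio of TTP-AA to TTP differed between 0 h and 1 h by Zelen's exact test (adjusted p = 0.00462). For 4 h and 1 h Zelen's exact test gave an adjusted p of 0.0337, which cannot decide whether the odds ratios differ. The first rests on 26 and 16 cDNAs at 0 h against 27 and 425 at 1 h, and it was lost with each site counted once (Zelen's exact test, adjusted p = 0.612). The second rests on 0 and 11 cDNAs at 4 h, with B2m past the minimum count only through TTP-AA. Of only 25 genes in the second test 48.0% were called. No difference between 4 h and 1 h is therefore read from it. Relative to all cDNAs its adjusted p was 0.403 (Zelen's exact test).

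Outside the 7 genes, a sense site 2668 nt upstream of H2-Q4 (chr17:35376948-35376949, intergenic) held 5 cDNAs in TTP 1 h and 18 in TTP-AA 1 h, above the floor of 3, and 2 or 3 in each of the other 4 lists. It was therefore present in all 6 lists, including TTP 4 h, where the 7 genes had none. On the strand opposite to H2-D1, 4 cDNAs lay 2322 nt downstream of the gene (chr17:35269821-35269827, intergenic) in TTP-AA 4 h and none in the other lists. No antisense site lay within any of the 7 genes.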

How the results depend on the processing

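No paired analysis was possible because the lists are sums over libraries, and for the same reason no replicate could be left out. Leaving out sites whose 30 nt recur in the genome was not run. The version on transcripts of other loci, chosen after seeing the data, removed no site and so tests nothing. The numbers of genes called moved with the settings. At 1 h, 132 became 1763 with all cDNAs as the denominator and 64 with sites of at least 2 cDNAs. At 0 h, 74 became 156 with a minimum of 5, 32 with a minimum of 20, and 31 both with sites of at least 2 cDNAs and with sites counted once. At 4 h, 17 became 51, 10, 10 and 7 in the same order. Between times the denominator of all cDNAs gave 503 for 255 (TTP-AA, 0 h to 1 h) and 276 for 62 (TTP-AA, 1 h to 4 h), and sites of at least 2 cDNAs gave 90 and 19. For TTP, 0 h to 1 h, 131 became 53 with a minimum of 20, 47 with sites of at least 2 cDNAs and 67 with sites counted once, and for 1 h to 4 h, 34 became 14 with sites of at least 2 cDNAs. In Zelen's test for 0 h and 1 h, 57 became 27 with a minimum of 20, 132 with all cDNAs, 20 with sites of at least 2 cDNAs and 35 with sites counted once, and for 4 h and 1 h, 12 became 26 and 5 with minimums of 5 and 20, 5 with sites of at least 2 cDNAs and 7 with sites counted once. The denominators and site settings for Zelen's test were chosen after seeing the data. With sites counted once the summed ratio was 7.79 and the 3′UTR share of the 7 genes in TTP-AA 1 h was 96.1% in place of 98.6%, and a motif window of 50 nt gave AUUUA near 29.7% of their sites in place of 10.1%.

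For B2m the odds ratio turned in direction with sites counted once at 1 h (0.912) and in TTP-AA from 0 h to 1 h (0.993), and in TTP-AA from 1 h to 4 h with all cDNAs (0.235) and with sites of at least 2 cDNAs (0.552). In Zelen's exact test B2m was called under 6 of 7 alternatives for 0 h and 1 h (adjusted p from 2.55e-11 to 0.612, lost with sites counted once). The minimum counts leave its counts unchanged. With all cDNAs as the denominator the share of called genes that were higher in the list named last moved from 22% to 92.6% (TTP-AA, 0 h to 1 h), from 96.8% to 1.81% (TTP-AA, 1 h to 4 h), from 50.4% to 25.6% (TTP, 0 h to 1 h) and from 70.6% to 7.84% (TTP, 1 h to 4 h). With TTP-AA against TTP it moved from 56.8% to 75.6% at 0 h and from 52.9% to 71.4% at 4 h. The cause was not tested. The counts of at most 27 B2m cDNAs in the lists other than TTP-AA 1 h limit each comparison with them.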
